A study of Mus musculus with 12 samples.

Results

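The CD8 and CD4 coreceptors, the CD3 signalling chains and the factors that set CD8 or CD4 lineage were examined in T cells from mouse brain: Cd8a, Cd8b1, Cd4, Cd3d, Cd3e, Cd3g, Cd247, Zbtb7b and Runx3, the rows of the expression matrix with these symbols, 9 of 32285 genes. The cells came from 9-month-old female littermates of 4 genotypes: WT mice with neither transgene locus, hemizygous 5XFAD mice, a transgenic amyloid model, hemizygous PS19 mice, a tau model in which the mouse prion promoter drives mutant human MAPT, and PS-5X mice with both. The PS19 line came on a B6C3F1/J background and 5XFAD on congenic C57BL6, and the 4 genotypes were littermates from crosses of the 2 lines. CD4+, CD8+ and γδ+ T cells sorted from perfused brain were pooled over mice: 10 and 8 animals make up WT-1 and WT-2, 4 and 3 animals the pools 5XFAD-1 and 5XFAD-2, and 4 animals each PS19 and PS-5X, so each pool is a mean over animals and PS19 and PS-5X have 1 pool each. Each pool gave a 5′ gene expression library and a library of T cell receptor contigs.

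The αβ T cell receptor binds antigen but has no signalling tail of its own. It is carried by the CD3γε and CD3δε pairs and the ζ homodimer encoded by Cd247, whose tails are phosphorylated by Lck. CD4 and CD8 bind MHC class II and class I and bring Lck to the receptor; CD8 is an αβ heterodimer on conventional T cells and an αα homodimer on some intraepithelial and innate-like cells. In the thymus ThPOK, the product of Zbtb7b, keeps CD4 lineage cells from turning on CD8 genes, and Runx3 silences Cd4 and supports Cd8a in CD8 lineage cells. T cells that are stimulated repeatedly can lower coreceptor and receptor levels at their surface.

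Sequence before the start site is shown for the genes whose RNA moved together with clone size and activation below (Cd8a, Cd3g and Cd3e), for Cd3d, which did not, and for Runx3. The Cd3g and Cd3d start sites listed by RefSeq lie 1355 bases apart on opposite strands of chromosome 9. The lines give the 250 bases before a listed start, 5′ to 3′ on the gene's strand, from RefSeq on GRCm38.p6; such windows were listed for 7 of the 9 genes. On that build Cd8a spans chr6:71373427-71379171 beside Cd8b1 at chr6:71322788-71337492, Cd3g (chr9:44969572-44980431), Cd3d (chr9:44981769-44987052) and Cd3e (chr9:44998735-45009663) form 1 cluster, and Runx3 spans chr4:135120645-135177990. Cd4 lies at chr6:124864693-124888247, Zbtb7b at chr3:89377644-89393673 and Cd247 at chr1:165779952-165871153. Capitals mark CANNTG, the E-box, in the first 4 lines, and TGTGGT, the RUNX core, or its reverse complement in the line for Runx3. Both strands were searched, and the motifs can share bases.
Cd8a, chr6:71373177-71373426, plus strand: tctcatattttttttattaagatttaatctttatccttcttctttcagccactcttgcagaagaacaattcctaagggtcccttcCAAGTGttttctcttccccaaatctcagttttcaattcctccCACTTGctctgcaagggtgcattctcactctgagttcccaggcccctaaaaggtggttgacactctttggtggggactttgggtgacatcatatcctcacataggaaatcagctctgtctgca
Cd3g, chr9:44980432-44980681, minus strand: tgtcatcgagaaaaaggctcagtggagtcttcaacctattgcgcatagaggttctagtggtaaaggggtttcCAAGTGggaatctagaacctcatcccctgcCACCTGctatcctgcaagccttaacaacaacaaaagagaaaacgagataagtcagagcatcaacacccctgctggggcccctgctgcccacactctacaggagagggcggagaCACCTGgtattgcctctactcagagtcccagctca
Cd3e, chr9:45009612-45009861, minus strand: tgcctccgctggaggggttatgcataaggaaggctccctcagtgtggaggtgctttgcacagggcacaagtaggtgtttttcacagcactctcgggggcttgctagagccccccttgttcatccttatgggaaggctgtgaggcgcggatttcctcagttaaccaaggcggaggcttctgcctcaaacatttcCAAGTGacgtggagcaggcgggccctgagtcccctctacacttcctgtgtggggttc
Cd3d, chr9:44981536-44981785, plus strand: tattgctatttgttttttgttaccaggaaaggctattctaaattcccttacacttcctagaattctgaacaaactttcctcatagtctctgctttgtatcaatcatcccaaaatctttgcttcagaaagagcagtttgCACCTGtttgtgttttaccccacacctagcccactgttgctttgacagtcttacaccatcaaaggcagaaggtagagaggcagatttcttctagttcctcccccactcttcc
Runx3, chr4:135120395-135120644, plus strand: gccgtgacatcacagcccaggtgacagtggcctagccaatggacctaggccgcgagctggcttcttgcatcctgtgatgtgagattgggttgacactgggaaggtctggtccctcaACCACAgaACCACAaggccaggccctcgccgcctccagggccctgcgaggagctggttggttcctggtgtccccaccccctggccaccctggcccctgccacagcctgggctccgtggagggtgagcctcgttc
The E-box was found 2 times before Cd8a, 3 times before Cd3g and 1 time each before Cd3e and Cd3d, and 66.2% of 32851 listed promoters hold 1 in the same 250 bases. The RUNX core was found 2 times before the first of the listed Runx3 starts and 1 time before the second listed Zbtb7b start, against 14.0% of all listed promoters. These matches are descriptions of the letters and were set against no binding data.

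After removal of low-quality barcodes and doublets 17376 of 18374 barcodes remained, at a median of 5399 to 6817 UMIs per cell and pool, and the pools held 5883210 to 38616794 UMIs. Clusters named by markers held 11282 CD8, 3291 CD4 and 835 γδ T cells, and 1968 cells stayed unnamed. Some receptors occurred in more than 1 pool. Of the cells with both an α and a β chain, 165 of 553 in WT-1 (29.8%), 550 of 1833 in 5XFAD-1 (30.0%), 169 of 1722 in PS19 (9.81%) and 176 of 4127 in PS-5X (4.26%) carried the receptor of a cell in another pool, and none in WT-2 or 5XFAD-2. WT-1 shared 58 receptors with 5XFAD-1, 41 with PS19 and 3 with PS-5X, PS19 and PS-5X shared 6, and no other pair of pools shared any. Library pairs shared 1 to 23 cell barcodes, none with the same receptor. Several results on clone size and activation are therefore also given without WT-1, which is in all sharing pairs but that of PS19 and PS-5X. The paired tests of shares and ratios are given with all 6 pools, and 5 pools allow no exact permutation p under 0.0625. Each pool mixes several mice. For comparisons within pools the p-values measure how evenly a difference holds over pools. For genotype they measure the spread between pools.

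Among the cell classes, Cd8a and Cd8b1 were highest in CD8 T cells, Cd4 and Zbtb7b in CD4 T cells, and Cd3g, Cd3e and Cd247 in γδ T cells. Because these classes were clustered on genes that include Cd8a and Cd4, the levels are a description without a test. Levels are in CPM, UMIs of a gene summed over the cells of a class and pool and scaled to 1 common total of UMIs per sum, and 5′ UMI counts are compared within a gene only. In naive CD8 T cells Cd8a, the α chain of CD8, stood at 434, 454, 434, 455, 435 and 379.7 CPM in WT-1, WT-2, 5XFAD-1, 5XFAD-2, PS19 and PS-5X. In non-naive CD8 T cells it stood at 919, 919, 964, 995, 858 and 1090.3 CPM in the same order. The 2 sets did not overlap, and PS-5X was lowest in the naive and highest in the non-naive cells.

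Cd8b1, the β chain, differed less between those cells: 981 ± 55.4 CPM in naive and 1163 ± 122 CPM in non-naive CD8 T cells (SD, n = 6 pools), with WT-2 (1067 CPM) in the naive set above WT-1 (1042 CPM) in the non-naive set. Cd4 ran from 214 to 327 CPM in naive and from 316 to 437 CPM in non-naive CD4 T cells, with PS-5X lowest in both. In non-naive CD8 T cells Cd4 was uneven over pools, at 61.1, 34.2, 81.8, 29.8, 28.4 and 15.8 CPM, highest in 5XFAD-1 and WT-1. Zbtb7b was at 20.6 to 38.5 CPM in naive CD4 and at 29.7 to 52.6 CPM in non-naive CD4 T cells, above every CD8 sum (0.893 to 7.79 CPM). In γδ T cells it was at 14.5 to 35.5 CPM, a range that overlaps that of naive CD4 T cells. Runx3, which is also known from cytotoxic and innate-like lymphocytes, was at 111 ± 7.02 CPM in naive and 221 ± 17.0 CPM in non-naive CD8 T cells. In CD4 T cells Runx3 was at 58.9 ± 9.87 CPM in the naive and 177 ± 11.6 CPM in the non-naive class, so non-naive CD4 T cells lay above naive CD8 T cells in every pool. In γδ T cells Runx3 was at 230 to 268 CPM, above non-naive CD8 T cells in every pool but WT-2.

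**Figure D1:**
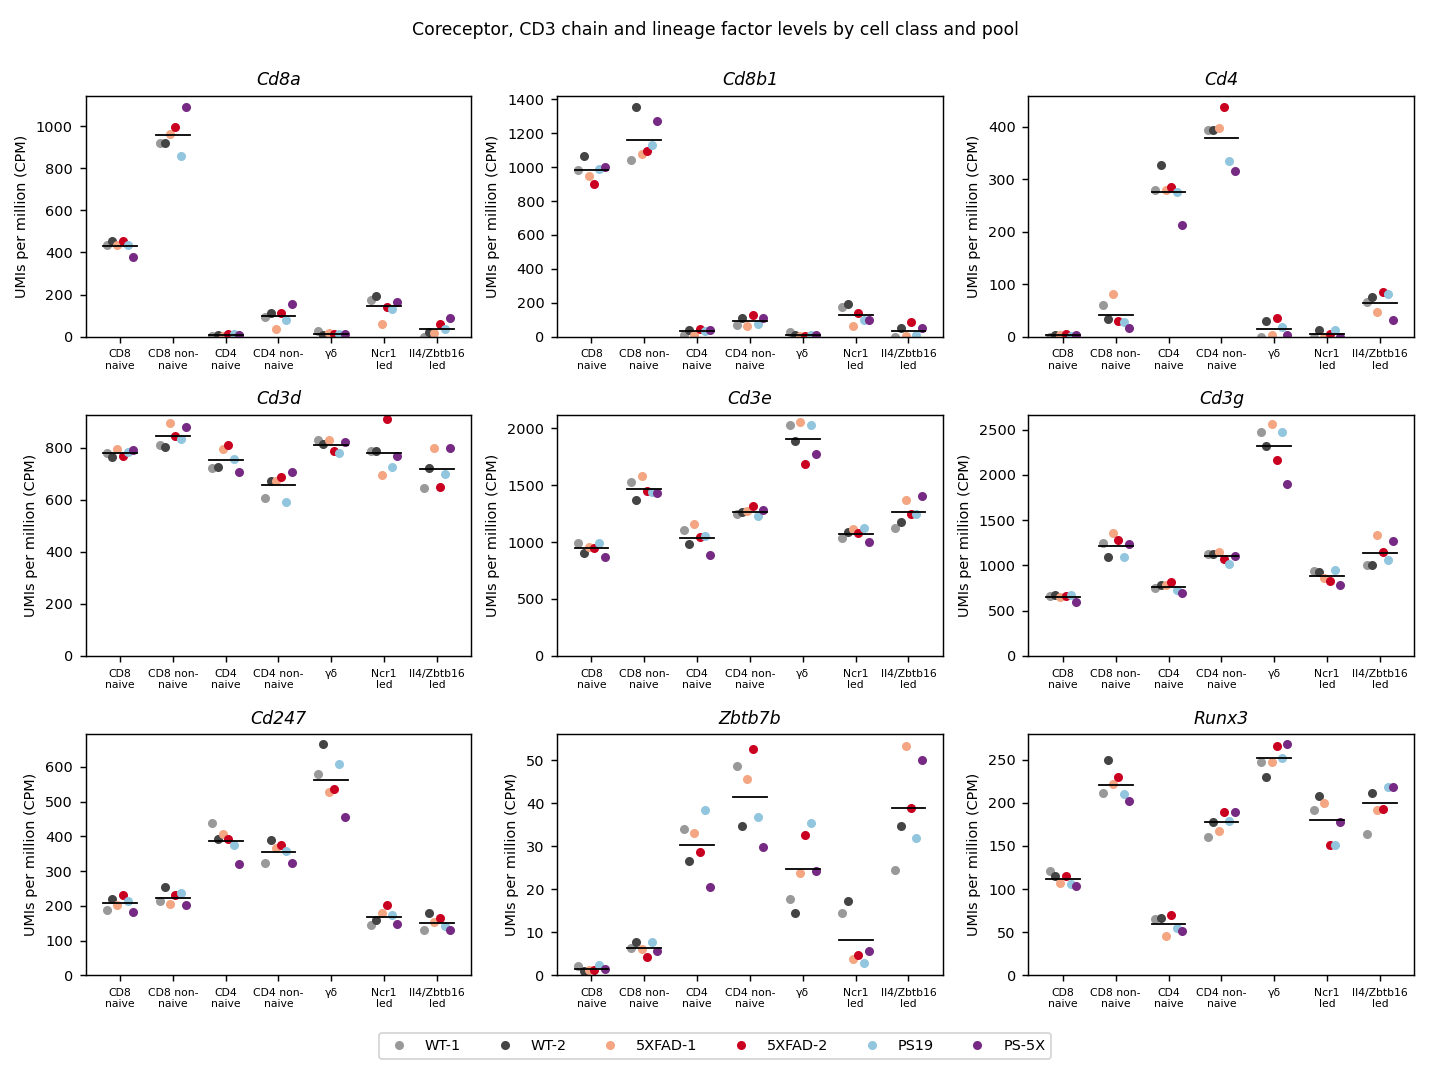
Level of each gene (y axis, CPM, linear, from 0) in 5 T cell classes and in the unnamed clusters led by Ncr1 and by Il4 and Zbtb16 (x axis). Points are the 6 pools and bars their mean. Cd3g in γδ T cells (1897 to 2562) lies above its highest level in the other classes. Cd3d lies higher in non-naive CD8 (803 to 894) than in non-naive CD4 T cells (592 to 709).

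γδ T cells carried the highest CD3γ RNA: Cd3g stood at 2471, 2324, 2562, 2160.0, 2473 and 1897 CPM in the 6 pools, above the highest non-naive CD8 sum (1359 CPM in 5XFAD-1). Cd3e ran from 1682 to 2055 CPM and Cd247 from 457 to 666 CPM in γδ T cells. Cd3d, the other chain that pairs with CD3ε, was at 812 ± 22.0 CPM there and at 781 ± 12.0 CPM in naive CD8 T cells, with overlapping ranges. Cd247 separated the αβ lineages in the other direction from Cd8a: 388 ± 38.8 CPM in naive CD4 against 207 ± 18.8 CPM in naive CD8 T cells, without overlap. The cluster of 411 cells led by Fcer1g and Ncr1, genes of NK and innate-like cells, held Cd8a at 57.5 to 193 CPM and Cd8b1 at 61.4 to 191 CPM, with 49.9% of its cells without any receptor contig. The cluster of 374 cells led by Il4 and Zbtb16, the factor known from NKT cells, held Cd4 at 31.2 to 84.6 CPM and Zbtb7b at 24.6 to 53.3 CPM.

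Per cell, each thinned to 2000 UMIs, CD3 RNA was near complete and CD4 RNA was not. A UMI of Cd3d, Cd3e or Cd3g was found in 99.7% ± 0.228 of non-naive CD8, 98.3% ± 1.38 of non-naive CD4 and 98.3% ± 1.46 of γδ T cells (SD, n = 6); the labels call the cells CD3+ T cells. A Cd8a or Cd8b1 UMI was found in 88.2% ± 2.81 of non-naive CD8 T cells, but a Cd4 UMI in only 49.8% ± 5.20 of non-naive CD4 T cells, so a cell without a Cd4 UMI is often a CD4 T cell at this depth. γδ T cells, most of which lack both coreceptors, served as a reference level: 1.70% of 824 cells held Cd8a, 0.971% Cd8b1 and 1.09% Cd4. Of the 14 cells with Cd8a, 11 had no Cd8b1. Whether these UMIs were free RNA or the cells' own was not tested. Naive CD4 T cells held Cd8b1 in 4.37% and Cd8a in 0.952% of 1260 cells, and naive CD8 T cells held Cd4 in 0.368% of 3263 cells. The share of non-naive CD8 class cells with Cd4, 5.47% ± 2.41 (lowest pool 2.42%), lay above the γδ share in every pool (highest 2.08%).

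To read the CD3 chains and lineage factors independently of clustering, cells with a productive α and β contig were split by their own coreceptor UMIs: at least 2 of Cd8a and Cd8b1 and none of Cd4, or at least 1 of Cd4 and none of CD8. Zbtb7b was at 4.19, 4.42, 3.68, 2.88, 4.17 and 3.49 CPM in the CD8 gate and at 50.7, 32.3, 36.7, 49.8, 35.5 and 32.9 CPM in the CD4 gate, lower without overlap (log2 -3.21 ± 0.14 SE, edgeR adjusted p = 1e-10). Cd247, the ζ chain, was at 189, 230.0, 199, 214, 214 and 189 CPM against 358, 367, 350.4, 345, 365 and 361 CPM, without overlap (log2 -0.71 ± 0.05, adjusted p = 9.8e-09). The CD8 gate was higher in Cd3d (log2 0.33 ± 0.03, adjusted p = 9.1e-07), Runx3 (0.26 ± 0.05, adjusted p = 0.0011) and Cd3e (0.14 ± 0.03, adjusted p = 0.0053). Cd3g did not pass (0.07 ± 0.04, adjusted p = 0.23). In all, 5 of the 6 genes tested passed, where 29.1% of 9824 genes did, 14.2% higher and 14.9% lower. Cd3e lost its call without the pool term (0.14, adjusted p = 0.18). Both gates hold naive and non-naive cells together. By cluster class, Cd3e was lower in naive CD8 than in naive CD4 T cells in every pool (869 to 994 against 884 to 1157 CPM). Among non-naive cells it was higher in CD8 in every pool (1366 to 1581 against 1226 to 1321 CPM). Cd3g was also lower in naive CD8 than in naive CD4 T cells in every pool (593 to 675 against 694 to 820 CPM). Among non-naive cells Cd3g was higher in CD8 in every pool but WT-2 (1088 to 1359 against 1015 to 1154 CPM). The Cd3e and Cd3g values of the gates therefore do not hold for both states.

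Other genes of the pathway split by lineage as well. Of 26 genes of proximal receptor signalling 8 were higher and 10 lower in the CD8 gate, with a median log2 of -0.07 against 0.00 over all genes. The adaptor Trat1 (log2 -2.45) and the inhibitory receptors Cd5 (-1.41) and Cd6 (-0.89) were among those lower in CD8. Of 15 lineage regulators 1 was higher and 9 lower, with a median of -0.19; Cd40lg (-4.47), the CD4 helper ligand, Runx1 (-1.22) and Gata3 (-0.95), a factor of CD4 development, were lower in the CD8 gate.

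Clone size was examined in non-naive CD8 T cells, where expanded means a clonotype with at least 2 kept cells in its pool. As a share of all UMIs Cd8a, Cd3g and Cd3e were higher in expanded cells than in singletons. Expanded cells held fewer UMIs (median 5487 against 6335 per singleton cell), so this does not give amounts per cell. Cd8a was at 1002, 1051, 1024, 1101, 1047 and 1199 CPM in expanded cells of WT-1, WT-2, 5XFAD-1, 5XFAD-2, PS19 and PS-5X and at 905, 781, 918, 916, 748 and 951 CPM in singletons. Every pool rose, and the lowest expanded sum (WT-1) lay above the highest singleton sum (PS-5X). Cd3g was at 1620.3, 1217, 1552, 1451, 1290.1 and 1326 CPM against 1095, 974, 1135, 1112, 966 and 1116 CPM, again without overlap. Cd3e was at 1749.7, 1469, 1725, 1585, 1568 and 1525 CPM against 1449, 1288, 1417, 1326, 1362 and 1293 CPM, and every expanded sum lay above every singleton sum.

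In the fit over all genes Cd3g rose by 0.36 ± 0.04 (log2 ± SE, edgeR adjusted p = 1.6e-07), Cd8a by 0.28 ± 0.04 (adjusted p = 2.1e-05) and Cd3e, the chain shared by both CD3 pairs, by 0.21 ± 0.03 (adjusted p = 3.3e-05). These 3 of 9 genes passed, where 7.87% of 9636 genes did, 3.92% higher and 3.94% lower. Cd8b1 did not pass (0.12 ± 0.04, adjusted p = 0.085), nor did Cd4 (0.36 ± 0.25, adjusted p = 0.51), and the other 4 genes lay between -0.02 and 0.12. Without the pool term Cd8a (0.27, adjusted p = 0.15) and Cd3e (0.21, adjusted p = 0.16) lost their calls. Without WT-1 and all cells that share its receptors Cd8a rose by 0.28 (adjusted p = 1.3e-04), and Cd8b1 passed (0.15, adjusted p = 0.042). Cd8b1 also passed without WT-1 alone (0.14, adjusted p = 0.044) and without 5XFAD-1 (0.16, adjusted p = 0.0092).

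Marker lists moved beside these sums. The naive list of 7 genes summed to 203 to 414 CPM in expanded and 426 to 613 CPM in singleton cells, and the γδ list of 8 genes to 121 to 343 against 52.4 to 85.1 CPM, of which the V segment Trgv2 made up 97.3% and 87.0%. The defining γδ marker Trdc was at 0 to 4.70 and 0.615 to 3.91 CPM, near 0 in both. The median depth was 5487 UMIs per expanded and 6335 per singleton cell. Their part in the result was not tested. In the proximal signalling list 3 genes were higher and 2 lower, with a median log2 of 0.04 against 0.00 over all genes: the kinase Zap70 rose (0.17), and Txk (-0.32) and the adaptor Grap2 (-0.17) fell. Of the lineage regulators 1 rose, Tox (0.76), and 5 fell, Tcf7 (-0.55) and Lef1 (-0.58) among them.

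With naive cells included, 6 of 9 genes were higher in expanded than in singleton CD8 T cells. Naive clusters held 87 of the 4198 expanded and 2979 of the 6272 singleton cells, so this contrast also sets non-naive against naive cells. In it 32.4% of 10198 genes passed, 17.1% higher and 15.2% lower. Cd8a (log2 0.55 ± 0.05, edgeR adjusted p = 5.2e-08), Cd3g (0.55 ± 0.05, adjusted p = 1.7e-08), Runx3 (0.40 ± 0.05, adjusted p = 8.5e-07) and Cd3e (0.33 ± 0.04, adjusted p = 3.4e-06) rose. Cd4 (1.08 ± 0.26, adjusted p = 0.0032) and Zbtb7b (0.63 ± 0.23, adjusted p = 0.041) also passed. The Cd4 call was lost without 5XFAD-1 (0.57, adjusted p = 0.059) and without WT-1 and the cells that share its receptors (0.34, adjusted p = 0.23). The Zbtb7b call was lost without 5XFAD-1 (0.43), WT-2 (0.49), 5XFAD-2 (0.63) or PS19 (0.63). Its direction turned (-0.25) when lineage was taken from single cells in place of clusters. The CD8 group there is all cells with a β contig and no Cd4 or Trdc UMI, with or without a CD8 UMI. Runx3 did not pass among non-naive cells (0.12, adjusted p = 0.099).

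**Figure D2:**
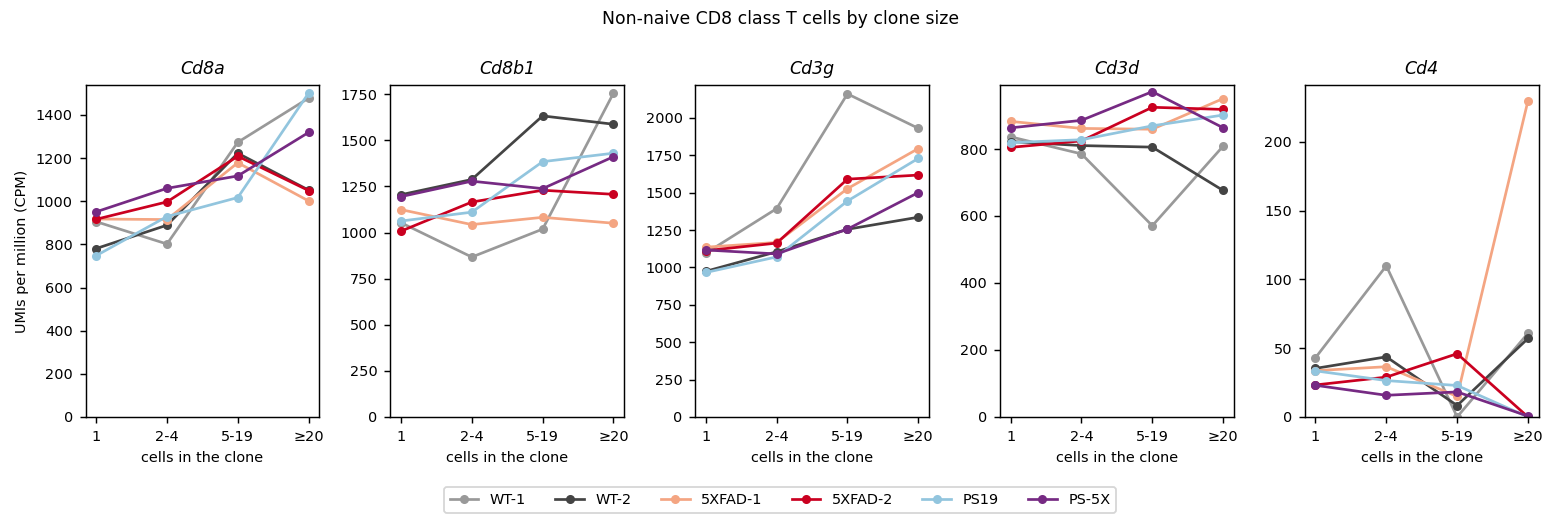
Level (y axis, CPM, linear, from 0) of 5 genes in non-naive CD8 T cells by clone size (x axis, kept cells per clonotype in its pool), 1 line per pool. Cd3g is higher at 20 or more cells than at 1 cell in all 6 pools, and Cd4 rises at 20 or more cells to 229.9 in 5XFAD-1, where it is 33.7 at 1 cell.

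By clone size Cd8a was at 869.7 ± 83.9 CPM in singletons and, in clones of 5 to 19 cells, at 1273, 1223, 1178, 1209, 1017 and 1117 CPM, above singletons in every pool. In clones of 20 or more it was at 1478, 1052, 1001, 1049.6, 1501 and 1319 CPM. WT-2, 5XFAD-1 and 5XFAD-2 were lower there than in clones of 5 to 19, and the other 3 pools higher, so the pools show no common order between these sizes. WT-1 held only 17 and 20 cells in these bins, and PS19 69 in the larger. Cd4 in the largest clones was at 229.9 CPM in 5XFAD-1 and at 0 to 60.9 CPM in the others.

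Loss of coreceptor RNA with activation was then examined. Non-naive CD8 T cells were split on 8 genes outside the set at 2000 UMIs per cell: activated cells held at least 3 of Pdcd1, Lag3, Tnfrsf9, Nr4a2, Irf4, Rgs16, Ccl3 and Ccl4, and resting cells none. As a share of all UMIs Cd8a was higher in activated cells, not lower. Activated cells held fewer UMIs (median 5103 against 6679 per resting cell), so this does not give the amount of RNA per cell. Cd8a was at 1162, 1114, 1122, 1075, 1177 and 1292 CPM in the 2135 activated cells of WT-1, WT-2, 5XFAD-1, 5XFAD-2, PS19 and PS-5X, and at 783, 835, 881, 952, 713 and 1025 CPM in the 1871 resting cells. All pools rose and the sets did not overlap. Cd3g was at 1655, 1346, 1732, 1561, 1631 and 1492 CPM against 895, 961, 1079.6, 1079, 876 and 1121 CPM, also without overlap. Cd3e was at 1791, 1556, 1839, 1628, 1914 and 1656 CPM against 1339.8, 1273, 1379, 1243, 1264 and 1335 CPM, so this chain too was higher in every pool.

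Cd8b1 was at 1138, 1311, 1067, 1145, 1254 and 1446 CPM in activated and 958, 1358, 1096, 1065, 1029 and 1196 CPM in resting cells. WT-2 and 5XFAD-1 were lower in activated cells and the other 4 pools higher. In the fit Cd3g rose by 0.60 ± 0.06 (edgeR adjusted p = 1e-07), Cd8a by 0.38 ± 0.06 (adjusted p = 3.7e-05), Cd3e by 0.36 ± 0.04 (adjusted p = 3.8e-06), Cd247 by 0.25 ± 0.08 (adjusted p = 0.030) and Runx3 by 0.23 ± 0.06 (adjusted p = 0.0074). Without WT-1 Cd8a rose by 0.36 (adjusted p = 1.9e-04). Zbtb7b fell (log2 -1.20 ± 0.36, adjusted p = 0.020) from 8.14 ± 3.74 to 3.49 ± 2.10 CPM, levels that rest on few UMIs. It was lower in activated cells in 5 of 6 pools and higher in 5XFAD-2 (5.33 against 0.898 CPM). With Cd4 (0.87 ± 0.24, adjusted p = 0.014), 7 of 9 genes passed, where 21.0% of 9011 genes did, 11.1% higher and 9.83% lower. Cd8b1 (0.09 ± 0.05, adjusted p = 0.22) and Cd3d (0.11 ± 0.05, adjusted p = 0.14) did not pass.

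**Figure D3:**
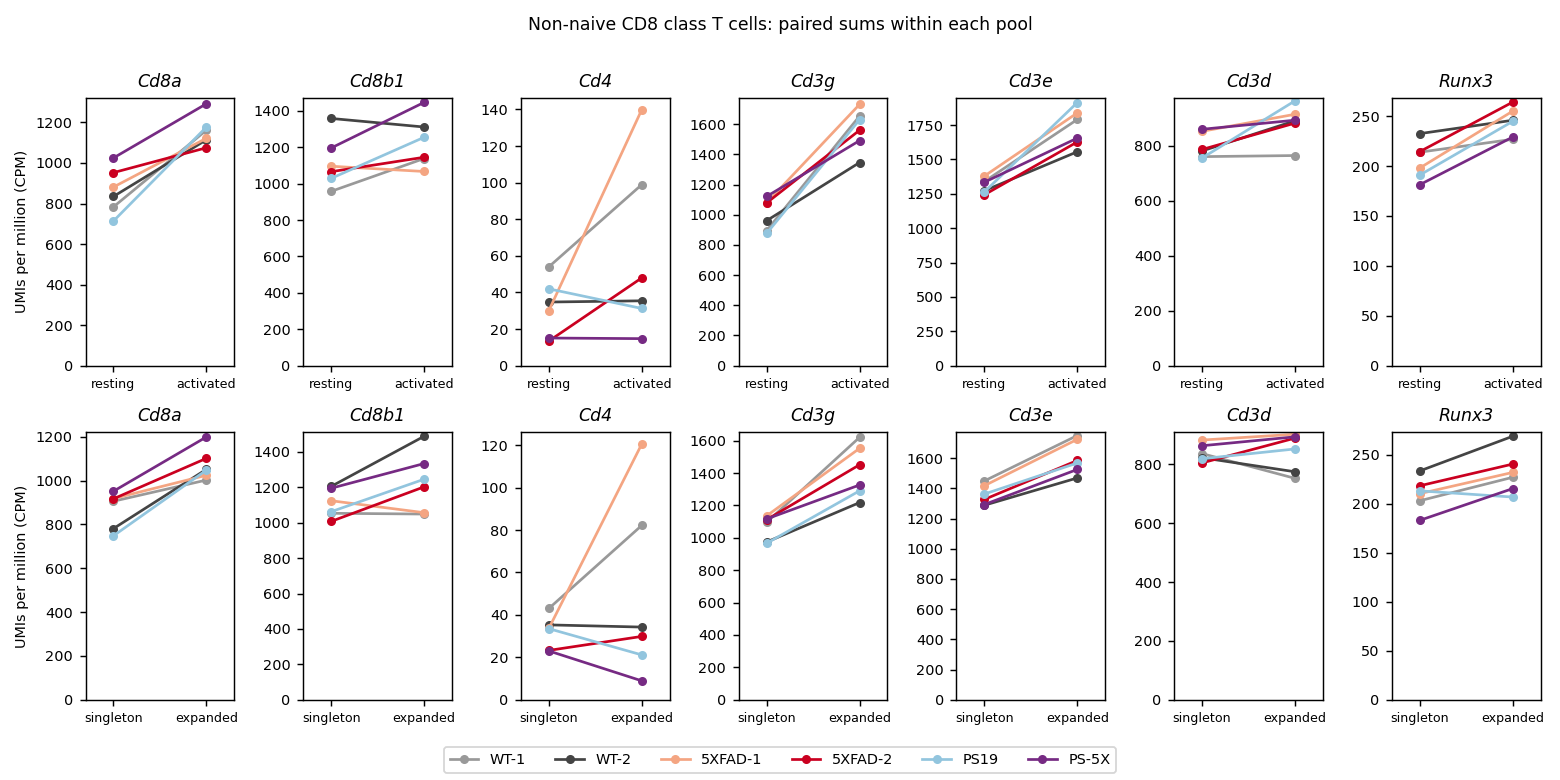
Level of 7 genes (y axes, CPM, linear, from 0) in resting and activated (top row) and singleton and expanded (bottom row) non-naive CD8 T cells, with 1 line per pool. Cd8a, Cd3g and Cd3e rise in all 6 pools in both rows. Cd4 rises mainly in 5XFAD-1, WT-1 and, in the top row, 5XFAD-2.

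How much of this holds depends on how activation is defined. With Nr4a1, Nr4a2, Nr4a3, Egr1, Egr2, Irf4, Myc and Tnfrsf9, genes of the early response, at least 2 against none, Cd8a still passed (0.12, adjusted p = 0.028) and so did Cd4 (0.91, adjusted p = 7.9e-06). Cd3g (0.07, adjusted p = 0.21), Cd3e (0.09, adjusted p = 0.074), Cd247, Runx3 and Zbtb7b did not pass there, and Cd8b1 was at -0.05 (adjusted p = 0.42). Cd4 was at 98.9, 35.4, 139.9, 48.0, 31.2 and 14.8 CPM in activated and 54.0, 34.8, 30.1, 13.5, 42.0 and 15.1 CPM in resting cells on the first gene set, so 5XFAD-1, WT-1 and 5XFAD-2 were higher, PS19 and PS-5X lower. That call was lost without 5XFAD-1 (0.31, adjusted p = 0.32) and with clusters computed without the 9 genes (0.03, adjusted p = 0.96). The Cd247 call was lost without any of 4 pools, WT-2 (0.24), 5XFAD-2 (0.22), PS19 (0.23) and PS-5X (0.19).

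Beside these sums, the naive list was at 161 to 382 CPM in activated and 416 to 600 CPM in resting cells, and the γδ list at 209 to 281 against 27.0 to 93.3 CPM, of which Trgv2 made up 93.4% and 89.8%. Trdc was at 0 to 6.25 and 0 to 3.92 CPM, the NK list at 5.12 to 49.3 and 18.9 to 119 CPM, and median depth was 5103 and 6679 UMIs per cell. Their part in the result was not tested. In the proximal signalling list 13 of 26 genes rose and 4 fell (median log2 0.21 against -0.01 over all genes), with Cd28 (0.71), the costimulatory receptor, Rasgrp1 (0.61) and the phosphatase Ptpn22 (0.58) among them. Of 14 lineage regulators tested 3 rose and 4 fell (median -0.02): Tox was at 2.25, Tcf7 at -1.14 and Lef1 at -0.88.

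The 2 CD8 chains did not move alike. The log2 ratio of Cd8a to Cd8b1 UMIs was 0.03, -0.23, 0.07, -0.09, -0.09 and -0.16 in activated and -0.29, -0.70, -0.31, -0.16, -0.53 and -0.22 in resting cells of the 6 pools in the order above. It was higher in activated cells in 6 of 6 pools, by 0.29 ± 0.18 (SD, n = 6, two-sided exact sign permutation over pools p = 0.03125, the smallest 6 pairs allow). Between expanded and singleton non-naive cells the difference was 0.16 ± 0.09, higher in 6 of 6 pools (exact sign permutation p = 0.03125), from 0.01 in 5XFAD-2 to 0.26 in PS19.

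The share of non-naive CD8 class cells without any CD8 UMI was lower in activated cells in most pools. At 2000 UMIs it was 11.6%, 7.32%, 17.5%, 7.95%, 6.54% and 4.01% in activated and 15.8%, 13.1%, 14.8%, 12.0%, 19.2% and 10.8% in resting cells. Activated cells were lower in 5 of 6 pools, with a mean difference of -5.15 ± 4.98 points (SD, exact sign permutation p = 0.0625), and 5XFAD-1 went the other way, so a change was not shown in either direction. With cells thinned to 4000 UMIs, which leaves out 507 activated and 256 resting cells, the difference was -0.483 points (exact permutation p = 0.8125). For expanded against singleton cells it was -4.70 ± 6.35 points (9.68% ± 5.19 against 14.4% ± 2.23, exact permutation p = 0.125), lower in 4 of 6 pools and higher in WT-1 and 5XFAD-1. Unthinned, 5.995% of activated, 8.39% of resting, 5.33% of expanded and 9.81% of singleton cells had no CD8 UMI.

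Part of these cells carried Cd4 UMIs. Without the CD8 class cells that hold a Cd4 UMI, a choice made after seeing the data, the share without a CD8 UMI was 3.60% ± 1.16 in activated and 7.96% ± 1.78 in resting cells, lower in activated cells in 6 of 6 pools (-4.37 points, exact permutation p = 0.03125). For expanded against singleton cells it was 4.32% ± 1.27 against 7.89% ± 2.07, again in 6 of 6 pools (-3.57 points, exact permutation p = 0.03125). The direction in 5XFAD-1, and for expansion in WT-1, turned with this choice. The 95% interval of a pool's share spans up to 20.4 points in resting cells (exact Clopper-Pearson) and covers counting error only.

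**Figure D4:**
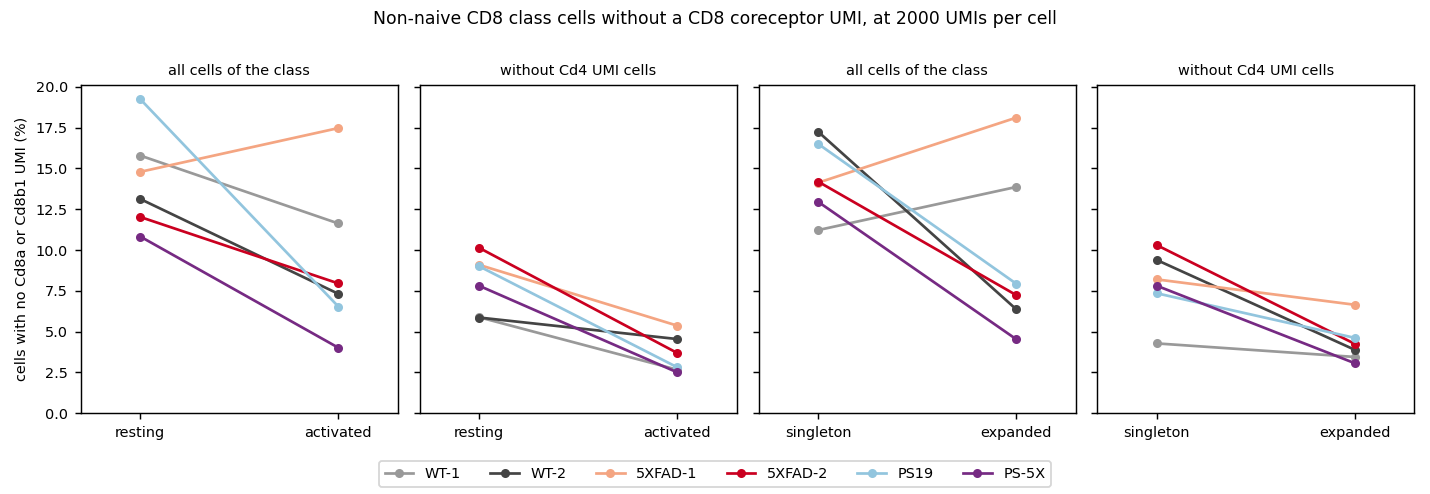
Share of non-naive CD8 class cells with no Cd8a or Cd8b1 UMI at 2000 UMIs per cell (y axis, percent, from 0) in resting and activated cells (left 2 panels) and singleton and expanded cells (right 2 panels), with 1 line per pool. The line of 5XFAD-1 rises when all cells of the class are kept and falls once cells with a Cd4 UMI are left out.

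Clone mates give a lineage that does not depend on a cell's own RNA or cluster. In 241 clones of at least 4 cells whose other cells had at least 90% CD8 among their coreceptor UMIs, 94 of 3036 cells thinned to 2000 UMIs (3.10%, exact interval 2.51% to 3.78%) had no CD8 UMI, and with all UMIs 17 of 3102 (0.548%). By pool the share was 1.85%, 2.62%, 4.55%, 2.14%, 2.50% and 3.15%, so 5XFAD-1 was highest and WT-1, with 54 cells, lowest. Among these cells it was 3.25% ± 1.23 in activated, 2.29% ± 1.28 in cells with 1 or 2 activation genes and 3.01% ± 3.13 in resting cells (SD over pools), with ranges that overlap (1.69% to 4.62%, 0 to 3.81% and 0 to 7.14%). WT-1 gave 1 resting cell, and without that pool the means were 3.14% ± 1.34 in activated and 3.62% ± 3.09 in resting cells. Over all cells the share was 30 of 1161 activated (2.58%) and 25 of 506 resting cells (4.94%), with 1.69% of 534 against 6.54% of 260 cells in PS-5X, so the order of the 2 states depends on how pools are weighted. In 32 clones with CD4 mates, 252 of 256 cells had no CD8 UMI, and 163 (63.7%) held a Cd4 UMI.

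Of the 259 cells in clones with CD4 mates 124 sat in clusters of the CD8 class, 87 of them from 5XFAD-1, and 91 in the cluster led by Ccl3, Ccl4 and Rgs16. These cells held Cd4 at 704 CPM, Zbtb7b at 26.2 CPM and Runx3 at 308 CPM, with Cd8a at 3.42 CPM and Cd8b1 at 4.56 CPM. Cells of CD8 clones in the same class held Cd8a at 1236 CPM, Cd4 at 5.92 CPM and Zbtb7b at 4.39 CPM. In the other direction 82 cells of CD8 clones, 72 of them from PS-5X, sat in the CD4 class with Cd8a at 904 CPM, Cd8b1 at 483 CPM and Cd4 at 4.13 CPM. Results named for a class hold for all cells of its clusters, these cells included. Without the CD8 class cells that hold a Cd4 UMI, Cd8a was at log2 0.26 (adjusted p = 2.9e-06) for expansion and 0.39 (adjusted p = 1e-05) for activation of non-naive CD8 T cells.

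A few clones held both coreceptors in the same cells. Of 280 clones of at least 4 cells, 4 had at least 4 cells with a UMI of both CD8 and Cd4; they were picked after their values were seen and are given without a test. In a WT-2 clone 18 of 20 cells held both, with Cd4 at 595 CPM, Cd8a at 1003 CPM, Cd8b1 at 816 CPM, Runx3 at 315 CPM and Zbtb7b at 11.7 CPM. A 5XFAD-1 clone held both in 27 of 154 cells (17.5%), with Cd8a at 1445 CPM and Cd4 at 62.8 CPM. The other clones held both in 4 of 22 cells in WT-1 and 4 of 10 in WT-2. WT-1 and 5XFAD-1 share 58 receptors, and whether the clones of these pools carry the same receptor is not given here. Over all 280 clones 83 of 3444 cells held both.

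In the CD4 class, Cd8a and Cd8b1 passed the edgeR test for expanded and for activated cells, while Cd4 did not. These calls were not kept in all settings. Cd8a in expanded CD4 class cells was at 0, 258, 0, 153, 62.0 and 343 CPM in the 6 pools against 44.7, 30.4, 30.9, 46.9, 41.0 and 24.2 CPM in singletons. WT-2, 5XFAD-2, PS19 and PS-5X were higher, and WT-1, with 4 expanded cells, and 5XFAD-1 were at 0. In the fit Cd8a (log2 2.21 ± 0.32, edgeR adjusted p = 3.7e-06), Cd8b1 (1.00 ± 0.24, adjusted p = 0.0028), Runx3 (0.63 ± 0.11, adjusted p = 1.1e-04) and Cd3g (0.40 ± 0.10, adjusted p = 0.0069) rose, 4 of 9 genes where 12.5% of 7817 did, 6.13% higher and 6.35% lower. Cd4 did not pass (-0.17 ± 0.12, adjusted p = 0.45). With DESeq2 Cd8a (0.68, adjusted p = 0.87) and Cd8b1 (0.14, adjusted p = 0.97) lost their calls, without PS-5X Cd8b1 did (0.53, adjusted p = 0.30), and without WT-2 Cd3g did (0.34, adjusted p = 0.080). Naive clusters held 22 of the 452 expanded and 1213 of the 2643 singleton cells, and the naive list summed to 361 to 886 against 2092 to 3442 CPM. Without the naive clusters Cd8a (1.59, adjusted p = 0.0015) and Cd3g (0.32, adjusted p = 0.049) passed, and Cd8b1 (0.72, adjusted p = 0.11) and Runx3 (0.25, adjusted p = 0.32) did not. The 82 cells of CD8 clones in this class, most from PS-5X, are part of these sums, and their part in the result was not tested.

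Activated non-naive CD4 class cells, with at least 2 of the 8 genes, held Cd8a at 348, 208, 41.9, 175, 139 and 320.3 CPM against 17.8, 87.2, 58.4, 83.4, 43.8 and 63.4 CPM in resting cells, higher in all pools but 5XFAD-1. Cd8a (log2 1.60 ± 0.24, edgeR adjusted p = 4.5e-05), Cd8b1 (1.26 ± 0.20, adjusted p = 1.1e-04), Cd3g (0.26 ± 0.07, adjusted p = 0.022) and Cd3e (0.21 ± 0.06, adjusted p = 0.039) rose, 4 of 9 where 4.57% of 6415 genes passed, 3.12% higher and 1.45% lower. Cd4 was at -0.02 ± 0.10 (adjusted p = 0.98). With DESeq2 Cd8b1 kept its call (1.41, adjusted p = 0.023), and Cd8a (1.63, adjusted p = 0.082), Cd3g (0.27, adjusted p = 0.089) and Cd3e (0.22, adjusted p = 0.14) did not. Without the pool block Cd3g (0.27, adjusted p = 0.13) and Cd3e (0.22, adjusted p = 0.19) lost theirs. With the early response genes none of these 4 kept its call: Cd8a was at 0.88 (adjusted p = 0.051), Cd8b1 at 0.58 (adjusted p = 0.15), Cd3g at -0.02 (adjusted p = 0.91) and Cd3e at 0.02 (adjusted p = 0.89). The Cd3g and Cd3e calls were also lost without 5XFAD-1 (0.23 and 0.18), WT-1 (0.23 and 0.21), WT-2 (0.23 and 0.20) or PS-5X (0.29 and 0.23), and that of Cd3e without 5XFAD-2 (0.22).

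The proximal signalling list gave 5 genes higher and 2 lower in expanded CD4 class cells (median log2 0.10 against -0.01 over all genes, of which 12.5% passed), with Txk at -1.67, Ubash3a at 0.55 and Ptpn22 at 0.46. In activated cells 3 were higher and 1 lower (median 0.15 against 0.00 over all genes, of which 4.57% passed), with Txk at -0.75, Rasgrp1 at 0.40 and Cd2, an adhesion receptor, at 0.31. Of the lineage regulators 1 was higher and 5 lower in expanded cells (median -0.15), among them Lef1 (-2.49), Satb1 (-1.56) and Tcf7 (-1.38). In activated cells 2 of 12 were higher and 2 lower (median -0.11), with Tox at 1.16, Cd40lg at 0.63 and Tcf7 at -0.72.

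The expansion effect itself differed between the classes for 2 of 9 genes, where 1.62% of 10029 genes passed the test of the interaction, 0.768% higher and 0.848% lower. This fit took all cells of both classes, naive ones included. The effect on Cd8a was smaller in CD8 than in CD4 class cells (log2 -1.72 ± 0.35, edgeR adjusted p = 0.0068) and that on Cd4 larger (1.29 ± 0.29, adjusted p = 0.015). Without the naive clusters Cd8a passed (-1.45, adjusted p = 0.010) and Cd4 did not (0.63, adjusted p = 0.43). Neither passed with DESeq2 (-0.38, adjusted p = 0.96, and 1.16, adjusted p = 0.23) or without the pool blocks (-1.71, adjusted p = 0.079, and 1.57, adjusted p = 0.23). Cd8a lost its call without PS-5X (-0.99, adjusted p = 0.29), and Cd4 without WT-1 (1.23), 5XFAD-1 (0.80) or 5XFAD-2 (1.23). The expanded CD4 class cells include the 82 cells of CD8 clones, with 438 Cd8a UMIs. The expanded CD8 class cells include the 124 cells of CD4 clones, with 617 Cd4 UMIs. Their part in the result was not tested, so the values hold for the classes and not for the lineages.

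Genotype was tested over pools. No gene of the set passed for amyloid (both 5XFAD pools and PS-5X, compared with PS19 and both WT pools, with tau in the fit) by edgeR in CD8 T cells, where 0.0% of 11425 genes passed, in non-naive CD8 T cells (0.0% of 10743), in CD4 T cells (0.0308% of 9734) or, of 8 genes tested, in γδ T cells (0.159% of 8187). At an unadjusted p under 0.05 the counts were 2, 2, 0 and 0, and DESeq2 called 0 in each. The genes with the smallest p in CD8 T cells were Cd8a, at 745, 721 and 641 CPM in WT-1, WT-2 and PS19 and 847, 793 and 904 CPM in 5XFAD-1, 5XFAD-2 and PS-5X (log2 0.27 ± 0.09, adjusted p = 0.39), and Cd3g (0.23 ± 0.08, adjusted p = 0.43). In non-naive cells Cd8a was at 0.21 ± 0.08 (adjusted p = 0.45).

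For tau (PS19 and PS-5X against the others) no gene of the set passed in CD8 (0.0% of 11425 genes) or CD4 T cells (0.0% of 9734), with 1 gene each at an unadjusted p under 0.05 and 0 by DESeq2. That gene was Cd4 in both: log2 -1.36 ± 0.45 (adjusted p = 0.71) in CD8 and -0.25 ± 0.10 (adjusted p = 0.84) in CD4 T cells. With the sequencing run as a block, the value for Cd4 in CD8 T cells passed (-1.94, adjusted p = 0.0080). It also passed with no filter on low counts (-1.35, adjusted p = 3.4e-20). The log2 without the filter was nearly that of the main fit (-1.36, adjusted p = 0.71). The far smaller p there thus reflects no larger difference between pools, and no tau effect on Cd4 is read from it. Without 5XFAD-1 the value was -0.80 (adjusted p = 0.88). In the CD8 class Cd4 was at 39.2, 20.6, 64.4 and 20.3 CPM in WT-1, WT-2, 5XFAD-1 and 5XFAD-2 and at 14.4 and 12.4 CPM in PS19 and PS-5X. The expansion effect in CD8 T cells did not pass for any gene as a difference between amyloid and other pools (0.0588% of 10198 genes passed, 0.00981% higher and 0.049% lower, with 1 gene of the set, Cd3d, at an unadjusted p under 0.05).

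**Figure D5:**
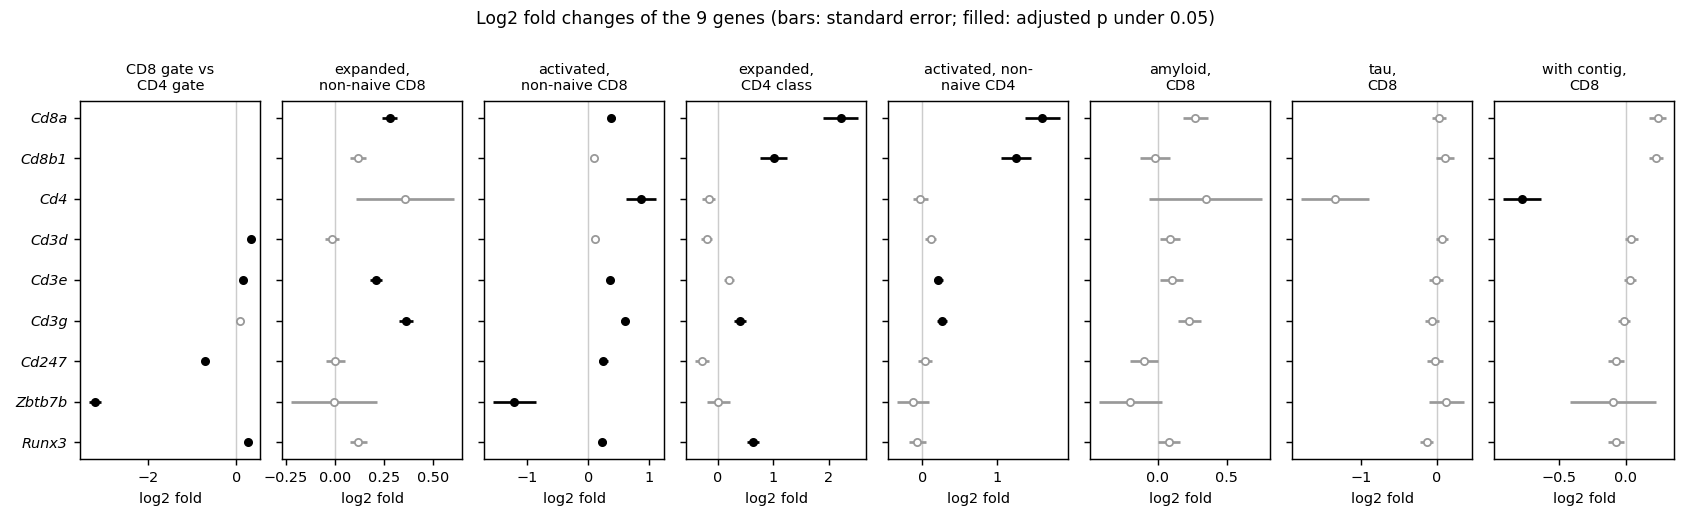
Log2 fold change (x axes, each panel with its own scale) of the 9 genes (y axis) in 8 comparisons, with bars for the standard error and filled points where the edgeR adjusted p is under 0.05. Cd8a, Cd3e and Cd3g are filled for expanded and for activated non-naive CD8 T cells, and no point is filled for amyloid or tau.

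Cells of the CD8 class with and without receptor contigs differed in 1 of 9 genes, where 0.169% of 9449 genes passed, 0.0212% higher and 0.148% lower. Cd4 was lower in cells with a productive β contig (log2 -0.78 ± 0.15, edgeR adjusted p = 0.0035), at 26.9 ± 19.5 CPM against 56.5 ± 54.3 CPM in the 812 cells without any contig. Cd8a (0.24 ± 0.06, adjusted p = 0.10) and Cd8b1 (0.23 ± 0.05, adjusted p = 0.050, at the threshold but not under it) did not pass. A CD8 UMI was found in 89.2% ± 2.52 of cells with and 78.6% ± 8.65 of cells without contigs at 2000 UMIs. Trdc was at 28.9 to 132 CPM in the cells without contigs and 1.72 to 3.50 CPM in those with, and its part in the result was not tested. The Cd4 call was lost without PS-5X (-0.70, adjusted p = 0.082). Cells without any contig made up 7.20% of the CD8 class, 5.96% of the CD4 class and 88.3% of γδ T cells.

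Over 55 sums of CD8 class cluster and pool, which share libraries and depth, the genes whose level of log2(CPM + 1) was most like that of Cd8a among 2871 genes were Cmtm7 (Pearson r = 0.91), Cxcr6 (0.88), a receptor of tissue-resident T cells, and Nedd9 (0.87). Cd3g followed Cd8a at 0.85 and Cd3e at 0.73, while Cd8b1 reached 0.40. Cd8b1 was most like Lsm5 (0.66), Polr2k (0.66) and Ddrgk1 (0.65). Runx3 was most like Itgb2 (0.94), an integrin chain, Nkg7 (0.93), a granule gene of cytotoxic cells, and Ctsd (0.92). Cd247 was most like Sh3kbp1 (0.72), Rhoa (0.70) and Abracl (0.70). These correlations are descriptions and carry no test.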

How the data were processed

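The authors deposited UMI counts per gene and barcode in 1 matrix that joins the 6 gene expression pools and a table of receptor contigs per barcode; clonotypes were taken from the contig table. Reads were processed with Cell Ranger 6.0.1, per the submitters' processing notes, which name GRCm38 and mm10 without a role; other settings are not given in the sources used here. Each barcode suffix was tied to a pool by the authors' contig table.

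Barcodes under 500 genes or over 10% mitochondrial UMIs were removed, and doublets were scored with Scrublet in scanpy 1.11.5; its threshold marked few barcodes, so the highest scores up to 0.8% per 1000 barcodes were removed (589). Leiden clusters (leidenalg 0.10.2, resolution 1.0, 2000 variable genes, 30 components, 15 neighbours) were named by marker lists. Of the 9 genes Cd8a and Cd4 were among the variable genes. Sums of UMIs for each class in each pool entered edgeR 4.0.16 in R 4.3.3 (filterByExpr, TMM, quasi-likelihood test, threshold of 0.05 for p adjusted by Benjamini-Hochberg over all genes), with pool as block for comparisons within pools; DESeq2 1.42.0 was an alternative. The fits were tested on simulated counts. Genotype fits had no replicate block: replicate number 2 marks the separate sequencing run of WT-2 and 5XFAD-2 in the labels, and same-numbered pools deviated together (r = 0.44 over 2804 genes). Paired shares and ratios were tested by exact sign permutation over 6 pools.

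The members, lists and tests were chosen with earlier results of these data known. Named genes of the lists are the 3 with the smallest p per list and comparison, genes of like pattern are the 3 with the highest r, and 17 other settings were run beside 4 chosen after seeing the data.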

Additional observations from a re-analysis of the deposited data

Results flagged for a closer look

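In naive CD8 T cells the pool PS-5X stood low against the other 5 pools for Cd8a (379.7 CPM, where the others lay between 434 and 455) and for Cd3g (593 CPM, others 648 to 675). In γδ T cells WT-1 stood high for Cd8b1, at 28.2 CPM against 2.74 to 10.3 CPM, in a sum of 36 cells. These were 3 of 49 sets of 6 pools looked at, and chance gives about 1 in 20. The effect of expansion differed between the CD8 and CD4 classes by the test of the interaction for Cd8a (log2 -1.72) and for Cd4 (1.29). DESeq2 called neither. Cells of CD8 clones in the CD4 class and of CD4 clones in the CD8 class are part of these sums, and their part was not tested.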

How the results depend on the processing

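Over the alternatives, 507 values were recomputed for the 32 calls of single genes: 419 kept their call, 86 kept the direction without passing and 2 turned, Zbtb7b in expanded CD8 T cells (-0.25 with lineage from single cells) and Cd3g in activated CD4 class cells (-0.022 with early response genes). Cd8a passed in 17 of 18 settings for expansion (log2 0.24 to 0.49) and 17 of 17 for activation (0.12 to 0.69) of non-naive CD8 T cells. Counts of the 9 genes called moved as follows, and the cause was not tested unless given. Lineage from single cells takes as CD4 the cells with a β contig, a Cd4 UMI and no CD8 UMI. As CD8 it takes cells with a β contig and no Cd4 or Trdc UMI, with or without a CD8 UMI. CD4 T cells without a Cd4 UMI can thus enter its CD8 group, and their part in these values was not tested. By these rules Cd8a, Cd8b1 and Cd4 are not tested there in CD4 cells or the interaction, nor Cd4 in CD8 cells. Cd4 is likewise not tested without cells holding a Cd4 UMI. For expanded non-naive CD8 T cells 3 became 5 with lineage from single cells, clones of 5 or more, or no filter, and 1 without the replicate block of pool. For activated CD8 T cells 7 became 2 with early response genes and 4 without the heat shock cluster, with DESeq2, or without the replicate block. For activated CD4 class cells 4 became 1 with early response genes or DESeq2, 0 with lineage from single cells (Cd3g 0.35, adjusted p = 0.065; Cd3e 0.30, adjusted p = 0.058), 2 with no filter or without the replicate block, and 2 to 4 leaving out 1 pool. For expanded CD4 class cells 4 became 2 with lineage from single cells (Runx3 and Cd3g kept, the other 2 not tested), clones of 5 or more, DESeq2, or without the naive clusters. For the interaction 2 became 0 with lineage from single cells (by construction), DESeq2 or no replicate block, 1 with doublets kept, large clones, without the naive clusters, clusters without the 9 genes, or without WT-1 and the cells that share its receptors, and 1 to 3 leaving out 1 pool. For tau in CD8 T cells 0 became 1 with no filter or with the sequencing run as replicate block, which changed no other genotype call. For contigs 1 became 3 with doublets kept or no filter, 2 without the heat shock cluster, with clusters without the 9 genes or with DESeq2 size factors, 0 without cells holding a Cd4 UMI (by construction) or without the replicate block, and 0 to 3 leaving out 1 pool (0 without PS-5X, 3 without WT-2). Leaving out cells with a Cd4 UMI took the share differences to -4.37 and -3.57 points.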
